A study of Mus musculus with 4 samples.

Results

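The genes described here are Kit, its ligand gene Kitl and 5 genes of spermatogonial differentiation, Sohlh1, Sohlh2, Dmrt1, Dmrtb1 and Hmgn5. They were taken by their symbols from a table of counts for 55421 genes, and each of the 7 symbols matched 1 gene. The genes were picked by name and not by a measured value, but with earlier results of these data known. All 7 passed the filter on low counts, as did 20232 genes in total.

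Transcript levels were measured by mRNA sequencing in primary cultures of mouse spermatogonia (SSC cultures) of the CD1 strain. There were 2 libraries of cultures in complete SSC medium (Veh) and 2 of cultures given nutrient restriction medium with retinoic acid (NRRA), and the comparison asks whether NRRA changes the germ cell program in this strain as well. SSC cultures were derived from testes of pups aged 6 days, and NRRA lasted 48 h, with Earle's Balanced Salt Solution (EBSS) making up 90% of the medium and RA at 100 nM. The complete medium held bFGF and GDNF, which EBSS diluted with the rest of the medium in NRRA, so a lower supply of these growth factors cannot be told apart from the rest of the treatment. All cultures grew on irradiated mouse embryonic fibroblast (MEF) feeders prepared from CF1 mice, so both groups contained RNA of germ cells and of fibroblasts. The age, time and doses are those given for the cultures of the study in general. There was no group with RA alone or with nutrient restriction alone among the libraries analysed, so the parts of the 2 treatments cannot be told apart. The study calls the replicates of its sequencing experiments independent and biological, without naming single libraries. The labels tie no library to a pup or a culture, and the p-values below measure only the spread within each pair.

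KIT is a receptor tyrosine kinase that spermatogonia place on their surface when they leave the undifferentiated state. Its ligand, KITL or stem cell factor, is made in the testis mainly by Sertoli cells and is widely expressed by fibroblasts and other stromal cells. SOHLH1 and SOHLH2 are basic helix-loop-helix factors of spermatogonia and oocytes that pair with each other, bind E-boxes (CANNTG) and are needed for the differentiation of spermatogonia. DMRT1 and DMRTB1, also called DMRT6, are DM domain factors that act before and at the passage from spermatogonial divisions into meiosis, and HMGN5 is a nucleosome-binding protein that loosens chromatin.

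The DNA just upstream of Kit, Sohlh1 and Sohlh2 is shown first, because these are the receptor gene that rose most among the 7 and the pair of factors known to act on it. The sequences are those of RefSeq (GRCm38.p6), on the strand of the gene and written 5′ to 3′. Bases that lie in an annotated exon were left out. Capitals mark CANNTG, the E-box letters, and AGGTCA, the letters bound by a single retinoic acid receptor in its paired sites.

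Kit, chr5:75574737-75574915, plus strand: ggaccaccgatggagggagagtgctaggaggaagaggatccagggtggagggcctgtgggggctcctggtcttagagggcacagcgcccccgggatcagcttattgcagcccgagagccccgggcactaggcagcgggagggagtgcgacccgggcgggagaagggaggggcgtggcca
Sohlh1, chr2:25847249-25847498, minus strand: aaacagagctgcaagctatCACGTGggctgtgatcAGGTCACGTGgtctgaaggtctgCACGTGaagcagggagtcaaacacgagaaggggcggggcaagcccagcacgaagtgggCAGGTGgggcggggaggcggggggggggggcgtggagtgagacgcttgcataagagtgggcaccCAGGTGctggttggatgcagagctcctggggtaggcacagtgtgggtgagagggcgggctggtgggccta
Sohlh2, chr3:55181794-55182027, plus strand: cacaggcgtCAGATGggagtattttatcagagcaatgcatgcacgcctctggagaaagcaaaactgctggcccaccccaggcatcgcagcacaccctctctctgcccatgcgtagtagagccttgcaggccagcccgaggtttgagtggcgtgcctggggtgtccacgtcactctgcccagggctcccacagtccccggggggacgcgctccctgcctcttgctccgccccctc

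Motifs were searched on both strands over the 250 bases before each RefSeq start, where position -1 is the base before the start. The window of Sohlh1 held 5 CANNTG matches. Of these, 3 read CACGTG (first bases at -231, -211 and -192) and the other two CAGGTG (at -134 and -70). An AGGTCA at -215 overlapped the second CACGTG. Among 27025 promoter windows of the same length, 1 for each gene, 66.1% held at least 1 CANNTG, 1.18% held 5 or more, and 16 (0.0592%) held 3 or more CACGTG. The letters AGGTCA were present in 13.8% of the windows.

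The Kit window held no CANNTG and no AGGTCA, and its only match was 1 GGGCGG, the letters of a GC box, at -98. That motif was found in 33.0% of all windows. The Sohlh2 window held 1 E-box, which read CAGATG and began at -241, and also a GC box. The windows of Sohlh1 (-162, -128 and -19) and Kitl (-143, -45 and -41) held 3 GC boxes each, the last pair of Kitl overlapping, and 8.38% of all windows held 3 or more. Of the other members with a RefSeq window, Dmrtb1 (chr4:107684231-107684480) held CAAGTG at -249 and at -60, and neither Kitl nor Hmgn5 held a CANNTG. These are matches of letters in 1 window per gene and describe no binding.

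The libraries held between 28022265 and 31604769 counts, so that the floor of 3 counts used below corresponds to between 0.0921 and 0.111 CPM, the count scaled to the adjusted library size. Across genes, the replicates of log2 CPM had a Pearson's r of 0.993 in Veh and 0.994 in NRRA, and the common coefficient of variation between replicates was 2.61%. With so small a spread, 56.4% of the genes tested were called at a threshold of 0.05 on the Benjamini-Hochberg adjusted p of the edgeR quasi-likelihood test, 27.9% as higher and 28.4% as lower in NRRA. The 2 NRRA libraries lay outside the range of the 2 Veh libraries for 76.7% of the genes tested. Germ cell identity was clear in each library: the 12 germ cell markers, among them the germ cell RNA helicase gene Ddx4, summed to between 2637 and 2707 CPM in Veh and between 2968 and 2969 CPM in NRRA. The 22 fibroblast markers summed to 11210 and 11340 CPM in Veh and to 8477 and 8684 CPM in NRRA. In bulk libraries like these, fewer cells of a type and less RNA per cell cannot be told apart.

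All 7 genes were called, 5 of them higher and 2 lower in NRRA, and for all 7 the libraries of the groups did not overlap. The lower call of Dmrtb1 was lost without Veh replicate 1 and when scaled to the fibroblast markers. These counts stand against 56.4% and 76.7% of all genes. Their median log2 fold change was 0.52, against 0.0003 for all genes tested, and their median absolute log2 fold change was 0.63 against 0.33. Kit stood far from the others with a 48.1-fold rise, Hmgn5 fell to 0.198 of its Veh level, and the other 5 genes changed by less than 2-fold.

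**Figure D1:**
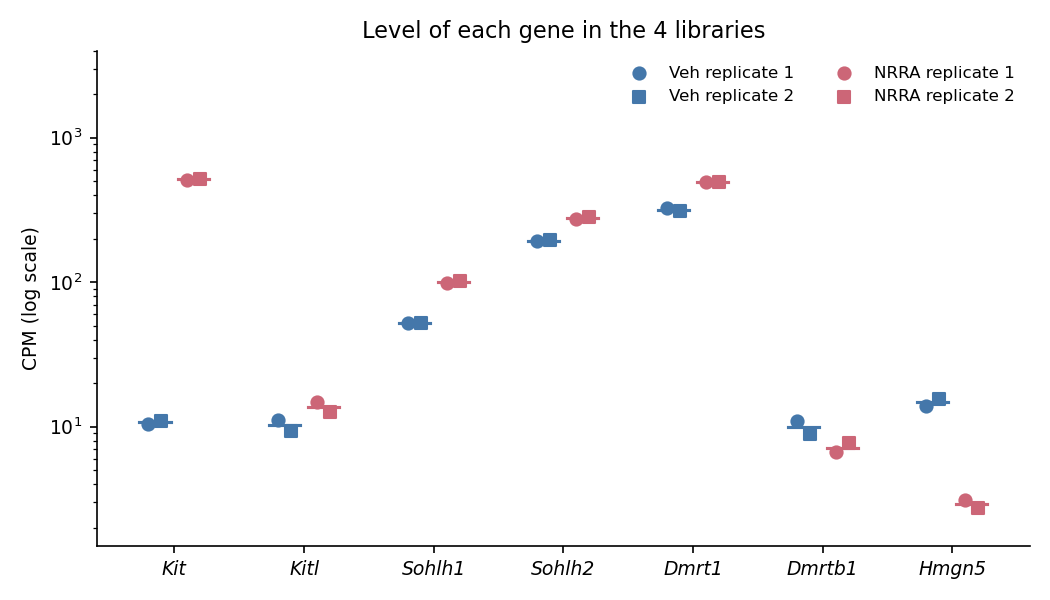
Level of each of the 7 genes in CPM (log axis) in the 2 Veh libraries (blue) and the 2 NRRA libraries (red), with the mean of each group as a line. Kit moves from 10.4 and 11.0 CPM to 512 and 521 CPM, Hmgn5 moves down, and for each gene the red and blue points are apart.

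Kit (ENSMUSG00000005672, GRCm38 chr5:75574916-75656722, plus strand, 8 annotated transcripts with 21 merged exons) had 283 and 328 counts in the Veh libraries and 16672 and 15685 counts in the NRRA libraries. These were 10.4 and 11.0 CPM in Veh against 512 and 521 CPM in NRRA. The NRRA libraries lay close together and far above both Veh libraries. Averaged over the pair of each group, the level went from 10.7 ± 0.417 to 516 ± 6.44 CPM (SD, n = 2 each), with a log2 fold change of 5.59 (SE 0.042, 95% interval 5.50 to 5.67, edgeR quasi-likelihood adjusted p 6.42e-33).

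By this change, Kit ranked 18 from the top among the 20232 genes tested. The genes on either side of it in that order, Sprr1a (5.91) and Flg (5.47), started close to the floor, at 0.260 and 0.104 CPM in Veh. Kit was thus already detected in Veh, well over the floor, in cultures that also held the markers of undifferentiated spermatogonia.

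Kit was also set against the germ cell markers of the same libraries, which does not assign its transcripts to a cell type. For each 1000 counts of the 12 germ cell markers there were 3.96 and 4.07 Kit counts in Veh and 172.5 and 175.5 in NRRA, a ratio of 43.3. Melanocytes, mast cells and Leydig cells also express KIT. The Leydig cell markers summed to 7.56 and 7.96 CPM in Veh and to 9.58 and 9.23 CPM in NRRA. Of the 10 melanocyte and mast cell markers, Tyr, Dct, Tyrp1, Cpa3, Mcpt4 and Fcer1a had 3 counts or fewer in every library, and their list summed to 18.6 and 20.4 CPM in Veh and to 10.8 and 10.9 CPM in NRRA. Most of that sum in Veh was Hdc, the histidine decarboxylase gene, which fell by 3.67 on the log2 scale (11.4 and 10.3 CPM in Veh against 0.860 and 0.830 CPM in NRRA). Most of the sum in NRRA was Pmel, a pigment granule gene, at 8.74 and 8.13 CPM in Veh and at 9.76 and 9.83 CPM in NRRA (0.22, not called). The part of such cells in the Kit counts was not tested. Hdc was named by the rule for lists and Pmel after its values were seen.

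Kitl (ENSMUSG00000019966, chr10:100015630-100100416, plus strand, 6 transcripts, 11 merged exons) was present at 11.1 and 9.31 CPM in the Veh libraries and at 14.9 and 12.7 CPM in the NRRA libraries. The lower NRRA library lay above the higher Veh library, but by less than the distance between the replicates of either group. The mean rose from 10.2 ± 1.24 to 13.8 ± 1.58 CPM (SD, n = 2 each), a log2 fold change of 0.44 (SE 0.11, 95% interval 0.21 to 0.67, edgeR adjusted p 0.00138). Kitl therefore changed 1.36-fold where Kit changed 48.1-fold. The value was set in part by single libraries: it was 0.32 without NRRA replicate 1 (adjusted p 0.0425), and between 0.32 and 0.57 over the leave-one-out fits.

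Markers of cell types that make KITL were read out beside the gene. Of the 22 fibroblast markers, 19 fell, 2 rose and 1 was not called, and Kitl per 10000 fibroblast marker counts was 9.75 and 8.30 in Veh and 17.15 and 14.9 in NRRA, or 1.78 times higher. Per 1000 germ cell marker counts Kitl was 1.22 times higher, and its log2 fold change was 0.29 when scaled to germ cell markers and 0.83 when scaled to fibroblast markers. The fibroblast sum was mostly Fn1, the fibronectin gene, chosen after its values were seen, at 6143 and 6087 CPM in Veh and at 4362 and 4352 CPM in NRRA. The fibroblast genes that fell most were Timp1, Lum, S100a4 and Thy1 (log2 fold changes -1.52, -1.43, -1.01 and -0.92), those that fell least were Col5a2 and Col1a1 (-0.085 and -0.097, both above 0 with library sizes taken from the fibroblast markers), and Col3a1 (0.61) and Fap (3.73) rose. The list's median was -0.37. S100a4 had only 26 and 29 counts in Veh and 19 and 11 counts in NRRA. Its call was lost with DESeq2 (adjusted p 0.169), with library size only, without the filter and when scaled to the fibroblast markers. Its log2 fold change was -0.73 without NRRA replicate 2. S100a4 shares 51.7% of its exonic bases with another gene on the same strand, which had 0 counts in every library.

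Of 9 Sertoli cell markers, 5 passed the filter, and Amh, Fshr and Rhox5 had 3 counts or fewer in every library. Sox9 fell by 1.59 and Gdnf rose by 0.53 on the log2 scale. Gdnf had 72 and 102 counts in Veh and 153 and 124 counts in NRRA. Its call was lost with DESeq2 (adjusted p 0.096) and when scaled to the germ cell markers (0.38, edgeR adjusted p 0.0732). Leaving out Veh replicate 1 lowered the log2 fold change of Gdnf to 0.36. The Sertoli list summed to 38.0 and 42.9 CPM in Veh and to 21.4 and 22.0 CPM in NRRA. Amh and Fshr, the genes for the hormone AMH and for the FSH receptor, were thus absent or nearly so. Wt1, Gata4 and Dhh were tested and not called. Of these, Wt1 was at 6.56 and 7.83 CPM in Veh and at 5.80 and 6.045 CPM in NRRA. Wt1, Gata4 and Dhh were named after their values were seen. The endothelial and macrophage list, cells that also touch this pathway, summed to 51.25 and 53.5 CPM in Veh and to 35.25 and 34.15 CPM in NRRA, with 8 of 9 tested, Pecam1, Kdr and Cd68 lower (-1.96, -1.46 and -0.86) and none higher. Attached somatic cells, Sertoli cells among them, were removed by plating when the cultures were set up. Which cells carried the Kitl transcripts was not tested.

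Per length, in TPM, where each count is divided by the gene's exonic length before scaling, Kit was at 4.05 and 4.29 TPM in Veh and at 217 and 221 TPM in NRRA, and Kitl at 6.48 and 5.46 TPM in Veh and at 9.52 and 8.10 TPM in NRRA. The ratio of receptor to ligand transcripts per length went from 0.706 ± 0.113 to 25.1 ± 3.19 (SD, n = 2 each). In Veh the order of the pair depended on the length used. With merged exons Kit lay below Kitl, and with the longest transcript it lay at 6.89 and 7.29 TPM against 6.78 and 5.71 TPM for Kitl. In NRRA, Kit was the higher of the pair with either length.

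Of the genes that carry the signal inside the cell, 46 were listed and all 46 were tested: 14 rose, 21 fell and 11 were not called, with a median log2 fold change of -0.063. This split follows the scaling. With library sizes taken from the germ cell markers, 6 were higher and 29 lower, and with those from the fibroblast markers 35 were higher and 7 lower, while the median of all genes moved to -0.15 and 0.39. The largest falls were those of Pik3cd, a catalytic subunit of PI3-kinase (-1.52), Sh2b3, which encodes the inhibitory adaptor LNK (-1.34), Spred1, an inhibitor of the RAS pathway (-1.04), and Stat3, a transcription factor downstream of cytokine receptors (-0.96). The largest rises were those of Sh2b2, an adaptor gene (0.89), Ptpn6, a phosphatase gene that opposes KIT (0.61), Stat5b (0.43) and Yes1, a SRC family kinase gene (0.42). None of these 8 changed its sign with any scaling tried.

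**Figure D2:**
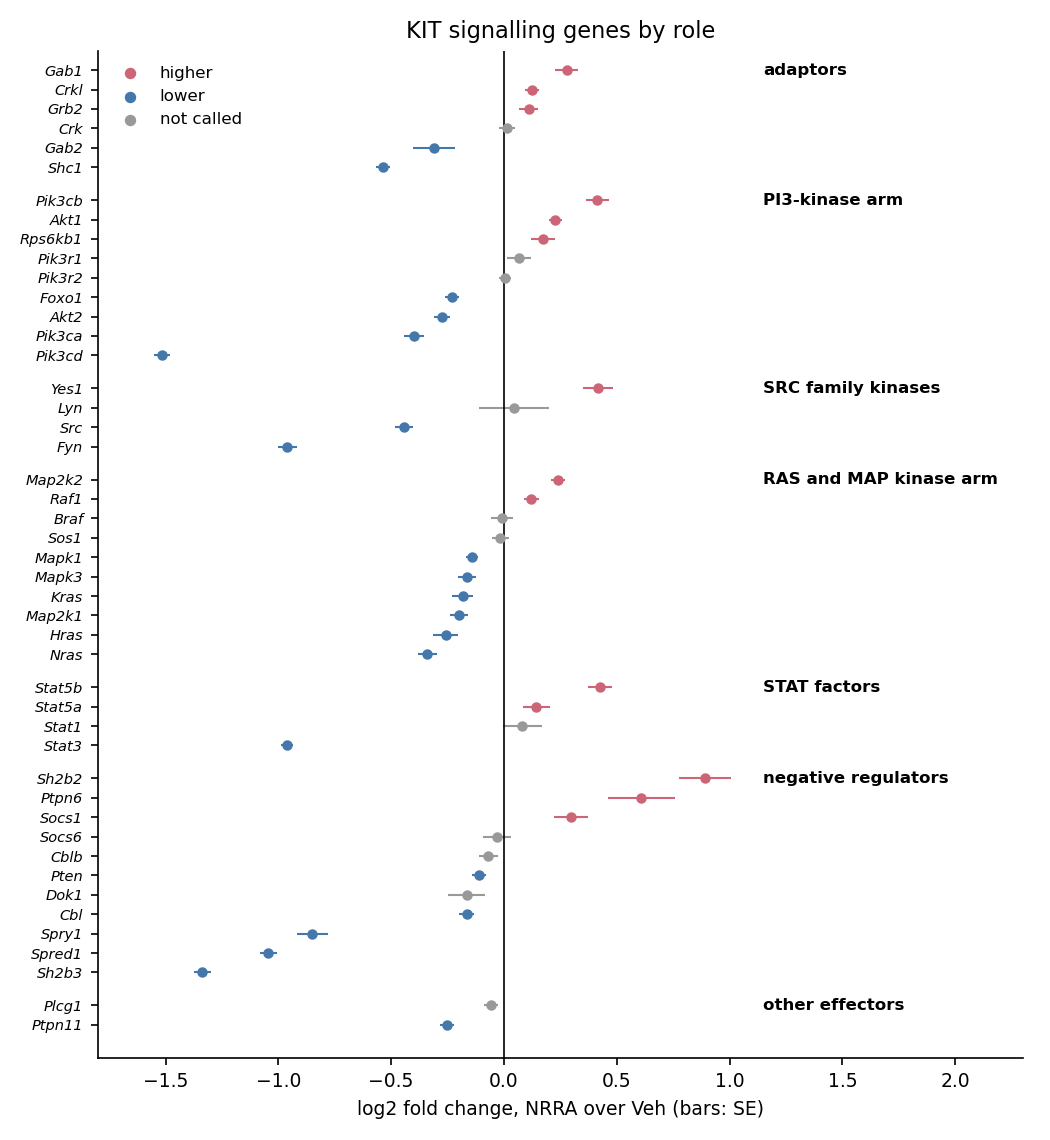
Log2 fold change (NRRA over Veh, with SE) of 46 genes of KIT signalling, grouped by role and coloured by the edgeR call. Genes lie on both sides of 0 in each group with more than 2 members, and no gene reaches the change of Kit itself (5.59, outside the axis).

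By role, 3 of 6 adaptors rose and 2 fell, and in the PI3-kinase arm 3 of 9 rose and 4 fell. In the RAS and MAP kinase arm 2 of 10 rose and 6 fell, with a median of -0.15. Of 11 negative regulators 3 rose and 5 fell, with a median of -0.11. Sh2b2, though an adaptor gene, was counted among them and had their highest log2 fold change (0.89), and Sh2b3 had the lowest (-1.34). SRC family kinases (1 of 4 higher, 2 lower), STAT factors (2 of 4 higher, 1 lower) and the remaining effectors Plcg1 and Ptpn11 (0 of 2 higher, 1 lower) were few. The roles were assigned with the values in view.

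The closest relatives of KIT are the other class III receptor tyrosine kinases, and 10 of 11 of these and their ligands were tested. Pdgfra, a receptor gene of stromal cells, rose by 0.98 on the log2 scale, from 21.7 and 21.5 CPM to 43.1 and 42.0 CPM, and the ligand gene Pdgfd rose by 0.98 as well. Pdgfrb had a log2 fold change of -0.20, which was 0.20 in the other direction when scaled to the fibroblast markers. The ligand genes Pdgfa, Pdgfb, Pdgfc and Csf1 fell (-0.73, -2.00, -0.94 and -0.82), and Csf1r (-0.14), Il34 (0.053) and Flt3l (0.42) were not called. Of the list, 2 rose and 5 fell, with a median of -0.17. Flt3 was under the filter, its counts being 7 and 9 in Veh, then 10 and 19 in NRRA. Pdgfa shares 26.1% of its exonic bases with an antisense gene, Csf1r 15.1% with a gene on the other strand, and Flt3l 22.1% with another gene on its own strand.

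**Figure D3:**
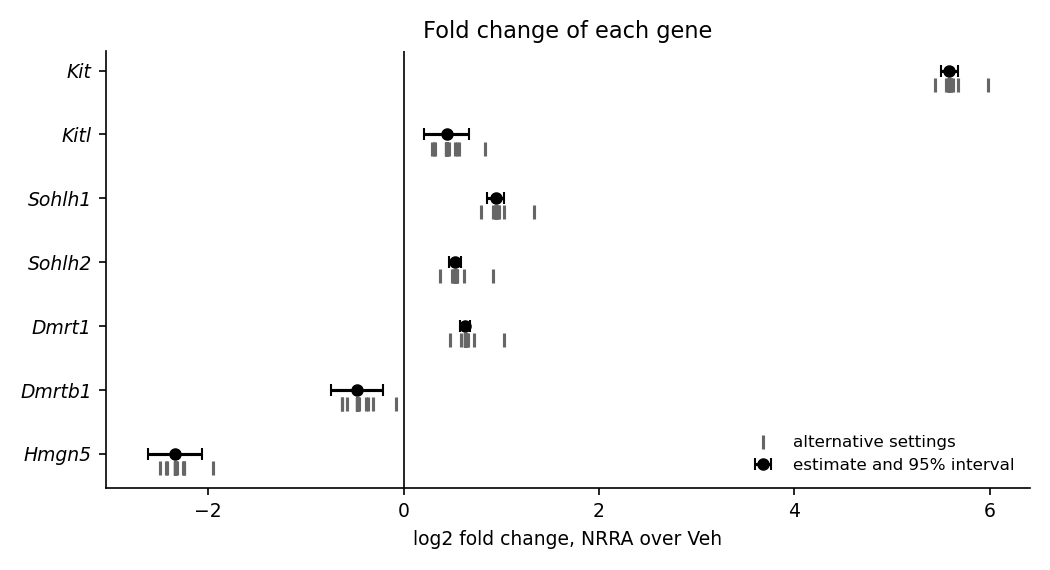
Log2 fold change of each gene (NRRA over Veh) with its 95% interval, and below it the values under 15 alternative settings as ticks. No alternative carries a gene across 0, and the tick of Dmrtb1 nearest to it, at -0.079, is the scaling to fibroblast markers.

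Sohlh1 (ENSMUSG00000059625, chr2:25842995-25847248, minus strand, 1 transcript with 8 exons) was at 52.4 and 52.2 CPM in the Veh libraries and at 98.8 and 102 CPM in the NRRA libraries. The replicates were nearly equal and the groups lay well apart. The mean went from 52.3 ± 0.139 to 101 ± 2.48 CPM (SD, n = 2 each), a rise of 0.94 on the log2 scale (SE 0.044, 95% interval 0.85 to 1.03, edgeR adjusted p 5.16e-16), or 1.92-fold. Per 1000 germ cell marker counts, Sohlh1 rose 1.73-fold.

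Its partner Sohlh2 (ENSMUSG00000027794, chr3:55182028-55209957, plus strand, 1 transcript with 11 exons) was at 192 and 196 CPM in Veh and at 274 and 283 CPM in NRRA. It too was higher in both NRRA libraries, by a smaller step. The mean went from 194 ± 3.01 to 279 ± 6.17 CPM (SD, n = 2 each), a log2 fold change of 0.52 (SE 0.029, 95% interval 0.46 to 0.58, edgeR adjusted p 2.83e-14), or 1.44-fold. The 95% intervals of the log2 fold changes of Sohlh1 and Sohlh2 do not meet, although the difference between the genes was not itself tested. Per length, Sohlh2 transcripts were 1.995 and 2.05 times those of Sohlh1 in the Veh libraries and 1.51 times in both NRRA libraries.

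Other helix-loop-helix genes of germ cells and the homeobox gene Lhx8, a partner of SOHLH factors in oocytes, were read out as a list. Of 14 such genes, 13 were tested, 3 rose, 7 fell and 3 were not called, with a median log2 fold change of -0.22. Lhx8 rose from 8 and 17 counts in Veh to 133 and 111 counts in NRRA (log2 fold change 3.14). Of the other oocyte genes Figla rose (1.05), while the homeobox gene Nobox was called lower (-0.48, from 4.79 and 5.54 CPM to 3.29 and 4.15 CPM). Ascl2 rose by 1.77 on the log2 scale. Neurog3 (-3.45) and the inhibitor gene Id4 (-3.32), both of undifferentiated spermatogonia, fell, as did Id3 (-0.85) and Id1 (-0.53), while Tcf4 had -0.19, or 0.20 when scaled to the fibroblast markers. Neurog3 overlaps a gene on the other strand over 16.3% of its exonic bases.

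Dmrt1 (ENSMUSG00000024837, chr19:25505618-25604329, plus strand, 3 transcripts, 5 merged exons) was at 326 and 311 CPM in Veh and at 491 and 494 CPM in NRRA. Both NRRA libraries were higher, and the distance between groups was many times that between replicates. The mean went from 318 ± 11.1 to 493 ± 2.15 CPM (SD, n = 2 each), a log2 fold change of 0.63 (SE 0.027, 95% interval 0.57 to 0.68, edgeR adjusted p 9.18e-17), or 1.55-fold. Dmrt1 was also the most abundant of the 7 genes per length, at 435 and 415 TPM in Veh and at 716 and 721 TPM in NRRA.

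Dmrtb1 (ENSMUSG00000028610, chr4:107676290-107684230, minus strand, 3 transcripts, 4 merged exons) was at 11.0 and 8.91 CPM in Veh and at 6.66 and 7.67 CPM in NRRA. Both NRRA libraries were below both Veh libraries, but the nearest libraries of the groups were closer to each other than the Veh replicates were. The mean went from 9.97 ± 1.498 to 7.17 ± 0.714 CPM (SD, n = 2 each), a log2 fold change of -0.47 (SE 0.13, 95% interval -0.74 to -0.21, edgeR adjusted p 0.0026). This call was lost without Veh replicate 1 (-0.32, adjusted p 0.0706) and when scaled to the fibroblast markers (-0.079, adjusted p 0.594), where the median of all genes is 0.39. Per 1000 germ cell marker counts, Dmrtb1 went to 0.646 of its Veh value. Dmrt1 and Dmrtb1 therefore moved in opposite directions, and the ratio of their transcripts per length was 23.8 and 28.01 in Veh and 59.2 and 51.7 in NRRA.

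Of the other 9 genes of the DMRT family, 5 were tested. Dmrt3 was at 26.25 and 24.4 CPM in Veh and at 18.85 and 17.6 CPM in NRRA and was called lower by edgeR (log2 fold change -0.47), a call that was lost when scaled to the fibroblast markers (-0.078, adjusted p 0.391). Dmrtc2, a testis gene, was at 10.7 and 10.1 CPM in Veh and at 12.9 and 13.6 CPM in NRRA and rose by 0.35. That call was lost when scaled to the germ cell markers (0.20, edgeR adjusted p 0.105). Dmrt2 (-0.0041), Dmrta2 (0.75) and Dmrtc1a (0.85) were not called, and the last had between 5 and 13 counts in a library.

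Hmgn5 (ENSMUSG00000031245, chrX:109004534-109013404, minus strand, 1 transcript with 6 exons) was at 13.9 and 15.6 CPM in Veh and at 3.10 and 2.72 CPM in NRRA, from 378 and 464 counts and 101 and 82 counts. The NRRA libraries were far below the Veh libraries and still well over the floor. The mean went from 14.8 ± 1.17 to 2.91 ± 0.267 CPM (SD, n = 2 each), a log2 fold change of -2.34 (SE 0.13, 95% interval -2.61 to -2.06, edgeR adjusted p 4.01e-14), and it ranked 350 from the bottom of the genes tested. Per 1000 germ cell marker counts, Hmgn5 went to 0.178 of its Veh value. Over 26.2% of its transcript, Hmgn5 is nearly identical to the processed pseudogene Gm11914, whose own counts were 16 and 9 in Veh, then 3 and 0 in NRRA.

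The other nucleosome-binding HMGN genes and the HMGA genes, which encode architectural proteins of chromatin, moved less than Hmgn5. All 6 were tested, with 2 higher, 3 lower and a median log2 fold change of -0.21. When scaled to the fibroblast markers, 3 were higher and 2 lower, and when scaled to the germ cell markers 0 and 4. Hmgn1 (-0.049) was not called, but was called higher (0.35) when scaled to the fibroblast markers and lower (-0.20) when scaled to the germ cell markers. Hmgn2 (0.089, or -0.062 when scaled to the germ cell markers) and Hmgn3 (0.29) were called higher, and Hmga2 (-0.95), Hmga1 (-0.51) and Hmga1b (-0.38, or 0.014 when scaled to the fibroblast markers) lower. The values of several of these are uncertain, since near-identical sequence elsewhere covers 76.9% of the transcript of Hmga1, 98.5% of that of Hmga1b and 39.2% of that of Hmgn2. The Hmgn2 call was also lost with DESeq2 (adjusted p 0.143), and its log2 fold change ran from 0.075 to 0.11 over the leave-one-out fits. The Hmgn3 call was lost when scaled to the germ cell markers (0.14, edgeR adjusted p 0.131).

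Placed in order of level per length, the 7 genes ran in Veh from Dmrt1, Sohlh2 (281 and 287 TPM) and Sohlh1 (141 and 140 TPM) through Hmgn5 (24.9 and 27.9 TPM) and Dmrtb1 (18.3 and 14.8 TPM) to Kitl and Kit. In NRRA the first 3 places were the same, at 439 and 453 TPM for Sohlh2 and 289.8 and 300.4 TPM for Sohlh1. Kit came next, before Dmrtb1 (12.1 and 13.9 TPM), Kitl and Hmgn5 (6.06 and 5.33 TPM). The libraries of neighbours in either order did not overlap. With the longest transcript as the length, Kit reached 369 and 376 TPM in NRRA and stood before Sohlh1.

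**Figure D4:**
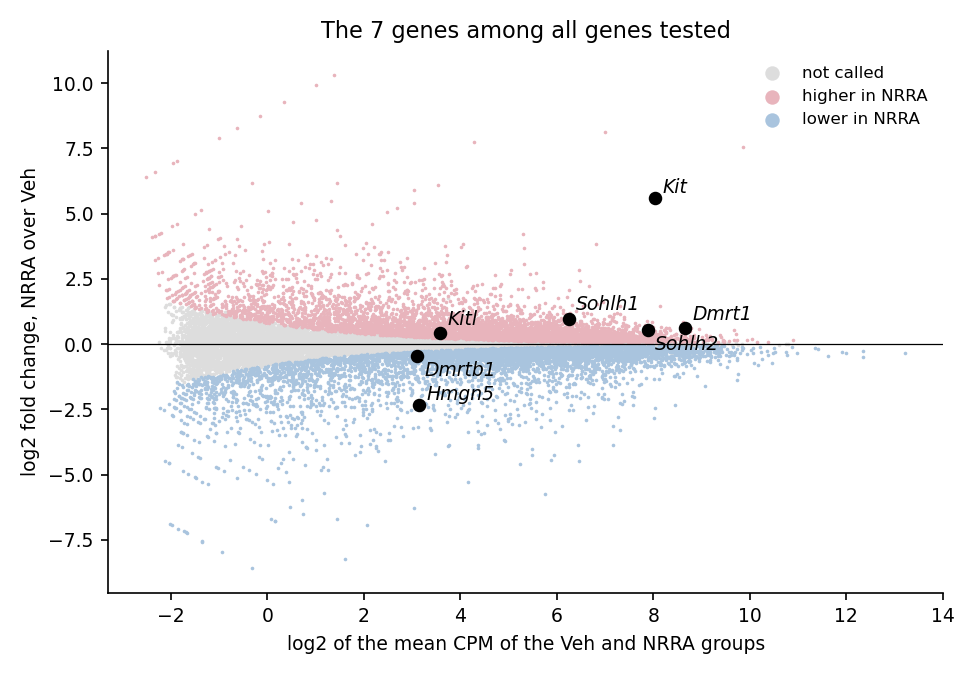
Log2 fold change (NRRA over Veh) against the log2 of the mean CPM for all 20232 genes tested, with called genes in red and blue and the 7 genes in black. Kit lies above the cloud of genes of like level, Hmgn5 near the lower edge of it, and the other 5 genes within it.

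The genes held to act on Kit, Sohlh1 or Dmrt1, among them Gata4 of the Sertoli list, were read out beside them. Of 16 such genes, 15 were tested, 5 rose, 7 fell and 3 were not called, with a median log2 fold change of -0.0096. Zbtb16, the gene of PLZF, a repressor of Kit, went from 441 and 443 CPM in Veh to 82.1 and 81.4 CPM in NRRA (-2.43). Sall1 (-2.34) and the low-count gene Gata1 (-1.46) were called lower too. Gata1 had 14 and 24 counts in Veh and 7 and 8 counts in NRRA. Its call was lost with DESeq2 (adjusted p 0.117) and when scaled to the fibroblast markers (-1.07, edgeR adjusted p 0.0688). Its log2 fold change was -1.10 without Veh replicate 2. Nanos2, whose product represses differentiation, went from 145 and 163 counts in Veh to 0 and 3 counts in NRRA, at or under the floor, and was called lower. About 49.0% of its exonic bases overlap an antisense gene. Of the retinoic acid receptor genes on the list, Rara rose (0.57) and Rarg fell (-0.58, from 112 and 113.5 CPM to 77.3 and 74.3 CPM). Sall4 (0.84), Sox3 (1.83) and the retinoic acid target Stra8 (7.56) rose as well. Nobox and Rarg were named after their values were seen.

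The state of the spermatogonia was also read from lists of markers, in which Kit and the other 6 genes were left out. Of 20 markers of undifferentiated spermatogonia, 18 fell, 1 rose (Sall4) and 1 was not called, with a median log2 fold change of -2.48. Nanos3 (-5.28), Tspan8 (-4.48) and T (-4.42) fell far, and Foxo1, Epcam and Lin28a (-0.23, -0.23 and -0.22) little, these 3 being above 0 when scaled to the fibroblast markers. Of 15 other markers of differentiating spermatogonia, 9 rose and 6 fell, with a median of 0.28. The largest rises were those of Cyp26a1, which encodes an enzyme that degrades RA (8.14), Stra8 (7.56), Ly6k (2.27, with 47.6% of its exonic bases under an antisense gene) and Sox3 (1.83). Nanos3, which stands on both lists, Upp1 (-1.76), Dnmt3a (-0.78) and Ccnd2 (-0.59) fell. Kit lay within the range of the genes that rose, while Sohlh1, Sohlh2 and Dmrt1 lay nearer to the median of that list.

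**Figure D5:**
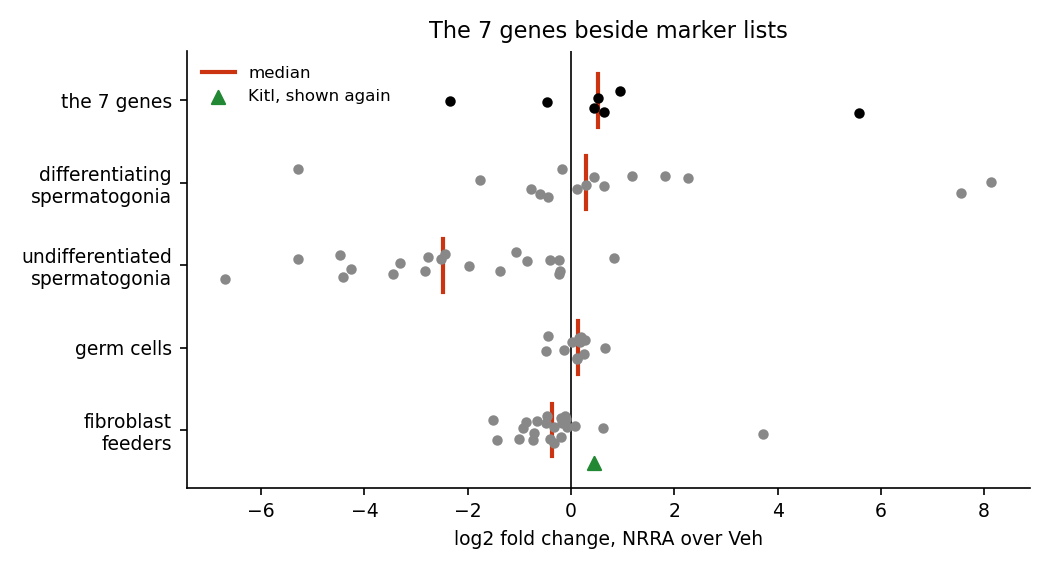
Log2 fold changes (NRRA over Veh) of the 7 genes and of the tested genes in 4 marker lists, with the median of each as a red line and Kitl drawn again beside the fibroblast list. The medians are 0.52 for the 7 genes, 0.28 for differentiating and -2.48 for undifferentiated spermatogonia, 0.14 for germ cells and -0.37 for fibroblasts.

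Of the 12 general germ cell markers, 8 rose, 3 fell and 1 was not called, with a median log2 fold change of 0.14. Piwil4, Tdrd1 and Mael fell (-0.49, -0.45 and -0.15). When scaled to the fibroblast markers, Mael was above 0 and the calls of Piwil4 (-0.094) and Tdrd1 (-0.056) were lost. Tex15 (0.66), Tdrkh (0.26), Tex14 (0.25) and Piwil2 (0.20) rose, as did Rbmxl2 (0.11, or -0.039 when scaled to the list itself). Tdrkh overlaps a gene on the other strand over 36.7% of its exonic bases. Dmrt1 (0.63) changed about as much as Tex15, and Sohlh1 (0.94) changed more than any of the 12. Since the list took 0.255% and 0.262% of the counts in Veh and 0.306% of them in both NRRA libraries, the rises of Sohlh1, Sohlh2 and Dmrt1 were also expressed against it, and each stayed past the threshold (log2 fold changes 0.79, 0.37 and 0.48).

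Genes with the most similar pattern were sought for each member among tested genes whose mean log2 CPM was within 1, as the distance between the 4 centred log2 CPM values. Kit had no close neighbour among 4814 candidates. The nearest were Cyp26b1 (distance 1.77, log2 fold change 3.82), Stra8 (1.97 and 7.56) and Rec8 (2.76 and 2.83), a gene of RA breakdown, a gene of meiotic entry and a cohesin gene of meiosis. The other members had neighbours at distances under 0.13: for Sohlh1 Zfp568 (0.018), Zdbf2 and Hcfc2, for Sohlh2 Kmt2e (0.0098), Vps13c and Ubr3, and for Dmrt1 Mknk2 (0.0267), Usp24 and Tex15. Kitl was nearest to Kcnj10 (0.0362), Serping1 and Ctsc, Dmrtb1 to 4931440P22Rik (0.0794), Gm12977 and Mppe1, and Hmgn5 to Nxph3 (0.0533), Ephb1 and Gm10676. With 4 libraries in 2 groups, such distances mostly compare the size of the change, and nothing else about the genes is read from them.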

How the data were processed

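Poly(A) RNA-seq of 2 Veh and 2 NRRA SSC cultures (CD1) was analysed from 1 table of raw counts per gene, which the authors deposited as whole numbers without normalization. The submitters' processing notes name bcl2fastq, STAR 2.6.1c, featureCounts 1.6.4 and mm10. The annotation release and strand setting are not given in the sources used here. The labels name a TruSeq kit and the methods a stranded kit from Tecan. Groups and replicate numbers came from the sample titles, and columns were matched by the descriptions, which number the Veh libraries 2 and 3 where the titles have 1 and 2.

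Genes were filtered with filterByExpr, scaled with TMM and tested with the robust quasi-likelihood F test of edgeR 4.0.16 (R 4.3.3), with p-values adjusted by Benjamini-Hochberg over the 20232 genes tested and a threshold of 0.05. The study's methods name DESeq2, which was run as an alternative (1.42.0), as was limma-voom (limma 3.58.1). SE and 95% intervals were derived from the F statistic. CPM used TMM-adjusted library sizes, and log2 CPM a prior count of 2. TPM was computed from the counts with merged exon lengths of GENCODE M21 (GRCm38), in which 55154 gene identifiers (99.5%) were found. Overlaps with other genes came from the same annotation, and near-identical sequence from BLAST (at least 95% identity over at least 100 bases). No member overlapped an exon of another gene. The floor on counts covers counting error only. The 95% intervals also take in the spread between replicates as estimated in the fit.

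The members, 14 gene lists and alternatives were chosen with earlier results of these data known. The text names all members, the 4 called genes at each end of a list (all where 8 or fewer were called), every tested gene of the DMRT, HMGN, HMGA and class III receptor lists, and the 3 genes nearest in pattern. The titles do not say whether the replicate numbers pair the libraries. The differences between replicates 1 and 2 of the groups had r = -0.0106 over 20232 genes. Across the 11326 whose log2 CPM averaged 3 or more, r was 0.0293. These values do not settle whether the libraries were paired, and the main test took them as unpaired.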

Additional observations from a re-analysis of the deposited data

How the results depend on the processing

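Over 15 alternatives, 103 of 105 values of the 7 genes kept their direction and call, with ranges of log2 fold change of 5.44 to 5.98 for Kit, 0.29 to 0.83 for Kitl, 0.79 to 1.34 for Sohlh1, 0.37 to 0.92 for Sohlh2, 0.48 to 1.02 for Dmrt1 and -2.49 to -1.95 for Hmgn5. The exceptions were both of Dmrtb1, at -0.32 without Veh replicate 1 (leave-one-out range -0.62 to -0.32) and -0.079 when scaled to fibroblast markers, so that 1 member instead of 2 was called lower there (leave-one-out range 1 to 2). Scaling moved the whole table: of the calls, 49.6% were higher with TMM, 60.25% with library size only, 32.1% (3765 genes higher) when scaled to germ cell markers and 84.45% (11830 higher and 2178 lower) when scaled to fibroblast markers. With the replicate block the counts were 5772 higher and 5835 lower, and Kit (5.59) and Dmrtb1 (-0.47) and the calls of the other members did not change.

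Of the values of 79 named list genes under the alternatives, 1103 kept direction and call, 48 lost and 6 gained a call, and 24 changed sign. Scaled to fibroblast markers, these were Pdgfrb (0.20), Csf1r (0.26), Dmrt2 (0.39), Hmgn1 (0.35), Hmga1b (0.014), Tcf4 (0.20), Foxo1 (0.16), Epcam (0.17), Lin28a (0.18), Mael (0.25), Col1a1 (0.30) and Col5a2 (0.31). Scaled to germ cell markers they were Il34 (-0.099), Hmgn2 (-0.062) and Rbmxl2 (-0.039), and with library size only Dmrt2 (0.086), Hmgn1 (0.041) and Col5a2 (0.0049). Dmrt2 was also 0.016 with upper quartile scaling and 0.0037 without the filter, and over the leave-one-out fits Dmrt2 ranged from -0.60 to 0.40 and Il34 from -0.061 to 0.17. Of the list counts, 379 were within 1.5 times and 41 beyond. Scaled to fibroblast markers, genes higher and lower were 6 and 4 for the class III list, 2 and 0 for DMRT, 7 and 3 for SOHLH partners, 9 and 4 for regulators, 9 and 8 for fibroblast markers, 10 and 0 for germ cell markers, 10 and 4 for differentiating and 4 and 15 for undifferentiated spermatogonia. Scaled to germ cell markers, these were 2 and 6, 0 and 1, 3 and 10, 5 and 8, 2 and 19, 3 and 4, 8 and 6, and 1 and 18. The causes were not tested.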

Other observations

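Leydig cells, which also express KIT, had low markers: 2 of 6 were tested, and Hsd3b1 and Lhcgr had 3 counts or fewer in every library. Star, which encodes the cholesterol carrier of steroid synthesis, made up most of the list's sum, at 6.97 and 7.19 CPM in Veh and at 8.78 and 8.77 CPM in NRRA (log2 fold change 0.31), and its call was lost in each leave-one-out fit.

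The ratio of Kit to its ligand per length changed 35.5-fold, that of Dmrt1 to Dmrtb1 2.14-fold and that of Sohlh2 to Sohlh1 to 0.748 of its Veh value. Among the 20232 genes tested, 56 had an absolute log2 fold change over 5, Kit among them.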
